A study of Mus musculus with 11 samples.

Results

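Nitric oxide synthases and the genes that carry the cyclic GMP (cGMP) signal were followed in the aorta of old mice given dietary nitrate. The members were chosen by name: the 3 nitric oxide synthases Nos1, Nos2 and Nos3, both main subunits of soluble guanylyl cyclase (Gucy1a3 and Gucy1b3), Prkg1, Pde5a, Mrvi1, Vasp and Npr1. They made up 10 of the 36413 gene names on the array and 12 of its 55681 probes, since Nos3 and Mrvi1 each had 2 probes. Of these 12 probes, 11 were detected, which left 9 genes with a measured level.

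RNA of the descending aorta was measured on one-color oligonucleotide arrays, 1 array a mouse. All mice were male C57BL/6 animals of 20 months. The 5 mice labelled NaNO3 had received sodium nitrate at 1 g/L in the drinking water for 8 weeks, and 6 mice were labelled control. The methods describe sodium chloride at equal concentration in the control water, whereas the labels name no sodium chloride and refer to the control arrays as a re-analysis of earlier samples. No label says whether the mice of both groups were housed side by side, and the part of this in the differences was not tested. According to the methods each vessel was cleaned of the surrounding fat and the whole vessel wall was extracted. Fewer cells of a type and less RNA per cell therefore cannot be told apart in any value given here.

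Nitric oxide formed by the endothelial synthase diffuses into the smooth muscle of the vessel wall, where it binds soluble guanylyl cyclase, a heterodimer of an alpha and a beta subunit. The cGMP it makes activates a protein kinase, which lowers calcium in the muscle cell and relaxes the vessel. Phosphodiesterases hydrolyse cGMP, and natriuretic peptides raise it by another route, through receptors that are themselves guanylyl cyclases. Inorganic nitrate can be reduced in the body to nitrite and nitric oxide.

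The genes of both cyclase subunits and of the cGMP phosphodiesterase lie on chromosome 3, as does Npr1. In both subunit genes and Pde5a the signal of all 5 nitrate mice lay on one side of the control median, as it did for Nos2 and Prkg1 but not for Npr1, where 3 were above it and 2 below. How many of all detected probes share this trait was not counted, so here and below it only describes the values. A part of the shared chromosome in it was not tested. A RefSeq promoter window of each subunit gene and of Pde5a (GRCm38.p6, 300 bases around the transcript start, most of them before it, 5′ to 3′ along the gene) is shown because both cyclase genes were higher and Pde5a was lower. Gucy1a1 is the current symbol of Gucy1a3 and Gucy1b1 that of Gucy1b3, and no annotated gene lies between them. Gucy1a1 has 2 windows in the table, and the one shown spans chr3:82145601-82145900 on the minus strand, while the other, at chr3:82145024-82145323, held none of the motifs searched. Coordinates of the other genes shown are, for Gucy1b1, chr3:82074662-82074961 on the minus strand and, for Pde5a, chr3:122728908-122729207 on the plus strand. Capitals mark the GC box (GGGCGG) and the CCAAT box (CCAAT), both searched on both strands, so that the other strand reads CCGCCC or ATTGG.
Gucy1a1: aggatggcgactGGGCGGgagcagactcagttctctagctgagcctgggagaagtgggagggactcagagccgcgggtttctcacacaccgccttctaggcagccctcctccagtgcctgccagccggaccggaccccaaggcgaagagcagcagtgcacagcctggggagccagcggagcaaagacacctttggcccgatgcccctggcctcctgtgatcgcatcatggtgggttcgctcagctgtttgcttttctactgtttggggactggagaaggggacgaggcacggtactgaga
Gucy1b1: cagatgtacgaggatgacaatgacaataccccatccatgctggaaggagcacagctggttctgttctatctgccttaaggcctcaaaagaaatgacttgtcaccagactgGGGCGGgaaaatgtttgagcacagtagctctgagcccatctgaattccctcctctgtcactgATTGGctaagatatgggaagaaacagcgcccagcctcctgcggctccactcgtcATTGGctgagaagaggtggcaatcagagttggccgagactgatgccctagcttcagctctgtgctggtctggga
Pde5a: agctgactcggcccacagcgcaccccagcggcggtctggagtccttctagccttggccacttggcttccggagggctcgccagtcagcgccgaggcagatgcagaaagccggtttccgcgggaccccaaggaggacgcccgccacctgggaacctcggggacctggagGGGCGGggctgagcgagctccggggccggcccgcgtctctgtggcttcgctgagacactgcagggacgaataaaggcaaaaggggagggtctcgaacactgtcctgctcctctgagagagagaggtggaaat
Each of the windows shown held 1 GC box, and that of Gucy1b1 also held 2 CCAAT boxes. Promoter windows were matched for 8 of the 10 genes, with no entry for Nos2 and Nos3. A GC box occurred in 7 of the 11 windows of the members and in 35.7% of all 32851 windows. A CCAAT box occurred in 3 of them and in 37.4% of all windows. No member window held the letters TATAAA (13.6% of all windows) or a CArG box, the motif bound by serum response factor (1.6% of all windows). A match is a description of the letters and not a measured binding site.

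The array measures each gene through a probe of 60 bases. The probes of Nos3, Mrvi1 and Npr1 shown here make plain what was hybridised, 1 of them within a single genomic block and the others split over a gap in the genome. They carry no capitals.
Nos3 (A_51_P139651): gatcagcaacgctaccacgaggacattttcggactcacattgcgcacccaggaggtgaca
Mrvi1 (A_51_P373669): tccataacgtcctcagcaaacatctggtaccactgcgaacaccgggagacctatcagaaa
Npr1 (A_51_P182693): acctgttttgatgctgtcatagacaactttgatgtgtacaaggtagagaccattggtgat
In the coordinates given by the array files (mm9), the Nos3 probe lies at chr5:23889636-23889695 on the plus strand. The Mrvi1 probe spans chr7:118042501-118043196 on the minus strand and the Npr1 probe chr3:90259171-90259664 on the minus strand, which leaves 636 and 434 bases of genome within each span that the probe itself does not cover. No gene annotation of mm9 was used here, so exon and UTR positions are not given.

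Per array, 24760 to 28655 probes were found and well above background, at most 186 of 59305 spots were outlier spots, and no spot was saturated. Averaged over its pairs with the other arrays, the log2 correlation of control 1 was 0.985, below the 0.990 to 0.993 of the remaining mice. Every slide held both groups, slide 2 with 1 nitrate mouse, on which each difference within slide 2 rests, and the others with 2 of each group. Slide 3 was scanned on another day than slides 1 and 2. The part of scan day in the differences within slide 3 was not tested. All 6 control arrays lay in slide column 3 and no nitrate array did, so that column and treatment cannot be told apart. The aorta was recognisable by Acta2 and Tagln, contractile smooth muscle genes, and by Vwf and Kdr, endothelial genes, which were detected and the brightest of their lists. Control 1 had the lowest smooth muscle marker level of the 11 mice and the highest adipocyte marker level, and values without it are given beside several results of the members and of both lists.

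Differences are given as nitrate minus control on the log2 scale of the quantile-normalized signal, with the standard error of limma. A probe is named as called at an unadjusted p under 0.05 with a fold change above 1.2, the limits of the methods. Of the 11 detected member probes, 3 were called, 1 higher (Gucy1a3) and 2 lower (Nos2 and Pde5a). The background is 9.00% of the 23632 detected probes, made up of 4.16% higher and 4.85% lower. An unadjusted p under 0.05 alone was met by 4 member probes against 14.4% of all detected probes. After Benjamini-Hochberg adjustment over all detected probes no member passed 0.05 in limma, where the smallest adjusted p was 0.258, and 0.0127% of all probes did. Signal was higher in nitrate mice for 7 of the 11 probes and lower for 4, with a median difference of 0.081 against 0.014 over all detected probes, of which 53.8% were higher.

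**Figure D1:**
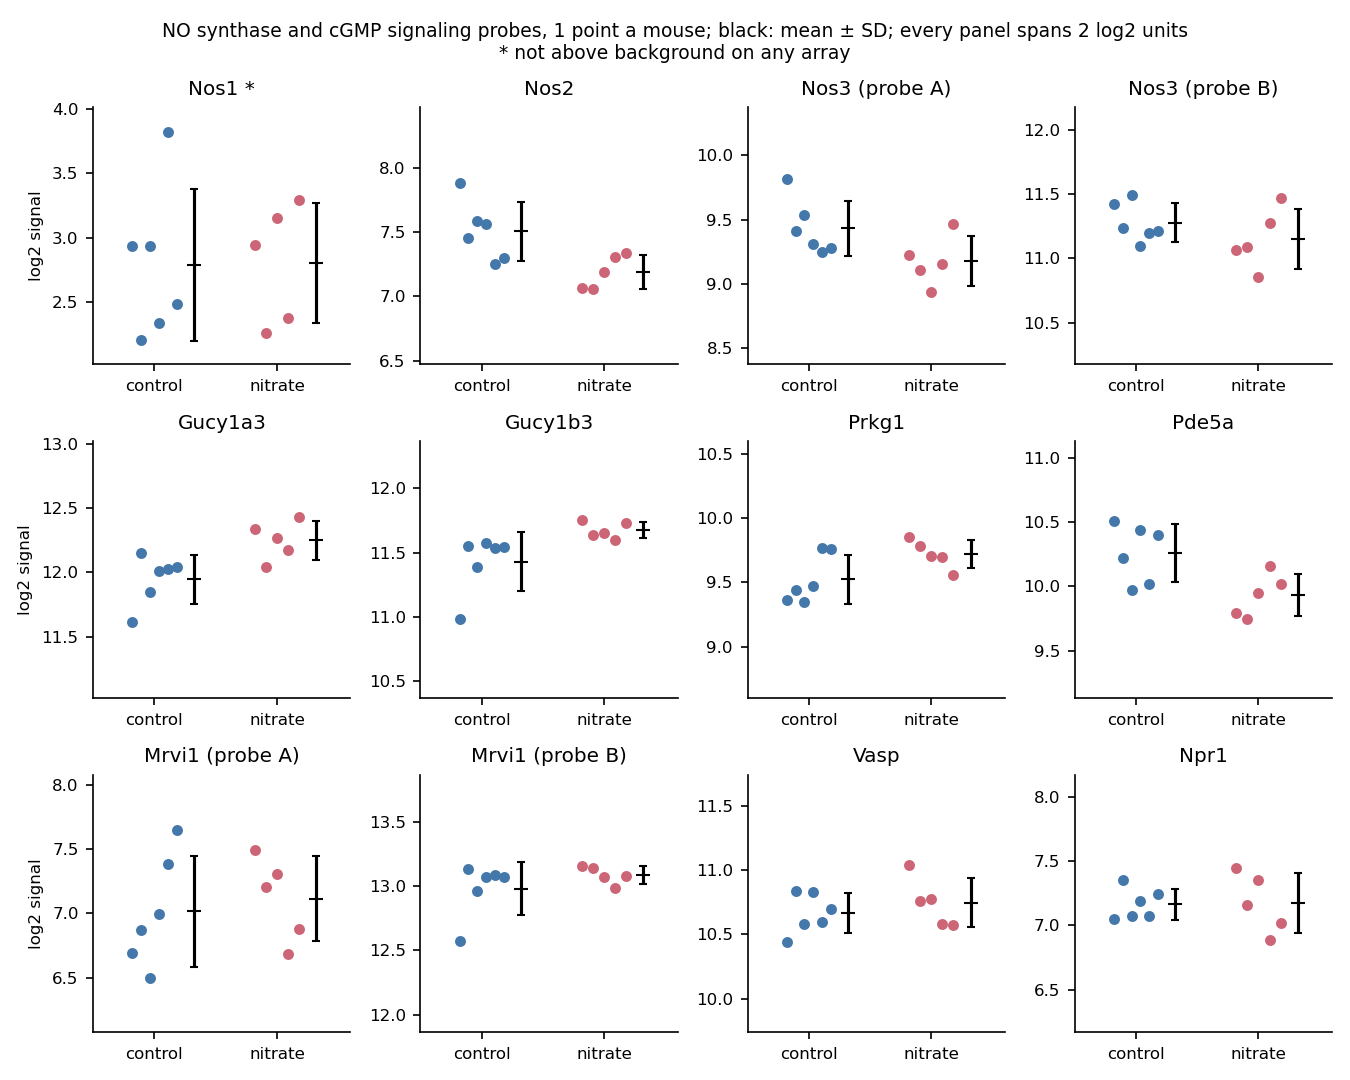
Log2 signal of each member probe in every mouse, with 6 control mice in blue and 5 nitrate mice in red and the mean ± SD beside them. The nitrate points of Gucy1b3 lie above every control point, those of Gucy1a3 lie mostly above, those of Nos2 and Pde5a lie mostly below, and Nos1 was not above background on any array.

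The first group of members makes nitric oxide. Nos1, the neuronal synthase, was not well above background on any of the 11 arrays (probe at chr5:118402831-118402890, plus strand), and a second probe described as Nos1 under a transcript name was also above background on 0 of 11. No level and no fold change is therefore given for Nos1. Of the neuron markers, Syt1, Th, Dbh, Prph and Stmn2 were not detected either, while 3 of 8 were. These were Snap25, which was bright (mean log2 signal 14.55 over all mice), Uchl1 (10.45) and Tubb3 (4.83).

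Nos2, the inducible synthase, which makes large amounts of nitric oxide in activated immune and other cells, was dim but above background on every array (chr11:78773567-78773626, plus strand, 2 spots). The nitrate mice read 7.06, 7.06, 7.19, 7.30 and 7.34. Among the controls the lowest value was 7.26, the median 7.51 and the highest 7.88. All 5 nitrate mice lay below the control median, and the groups overlapped through controls 5 and 6, which were as low as nitrate 4 and 5. The difference was -0.32 ± 0.11 (SE, 95% interval -0.56 to -0.073), a fold change of 1.24 downward, with an unadjusted p of 0.0153 and an adjusted p of 0.268 in limma and an exact two-sided permutation p of 0.0238. Without control 1 the difference was -0.24 and fell under the fold limit, at an unadjusted p of 0.0219 in limma. With normexp background correction it was -0.22 and was not called either. Within slides 1, 2 and 3 it was -0.60, -0.24 and -0.10. The gap between the 2 spots of the probe on an array ranged from 0.0082 to 0.38, with a median of 0.098.

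Nos3, the endothelial synthase and the main source of vascular nitric oxide, was measured by 2 probes. The Nos3 probe printed above, A_51_P139651, was carried by 10 spots on each array, so that its level is a mean over these spots. The spots of one array had an SD of 0.041 to 0.069, against an SD of 0.19 among nitrate mice and 0.21 among controls. The nitrate mice read 9.22, 9.11, 8.94, 9.16 and 9.47. Controls were between 9.25 and 9.81, with a median of 9.36. Here 4 of 5 nitrate mice were below the lowest control and nitrate 5 lay within the control range. The difference was -0.25 ± 0.12 (SE, 95% interval -0.51 to 0.0038), with an unadjusted p of 0.0529 and an adjusted p of 0.356 in limma and an exact two-sided permutation p of 0.0693, and it was not called. It was called when nitrate 5, control 5 or control 6 was left out (-0.33, -0.29 and -0.28) and when slide was a fixed (-0.29) or random (-0.26) block. Without control 1 it was -0.18.

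The other Nos3 probe, A_55_P2034027, lies further along the gene at chr5:23890038-23890097 and gave nitrate values of 11.06, 11.09, 10.86, 11.27 and 11.47 against controls of 11.10 to 11.50 with a median of 11.23. Its difference was -0.13 ± 0.11 (SE), with an adjusted p of 0.628 in limma and an exact two-sided permutation p of 0.305. It was -0.054 without nitrate 3 and -0.21 without nitrate 5. Both probes thus had the same sign, and neither passed the test. Of the endothelial markers, 5 of 10 were higher and 5 lower, and limma called 0 of them, with 1 at an unadjusted p under 0.05. The endothelial marker score, which is the mean deviation of the list from its average over all mice on the log2 scale, ranged from -0.11 to 0.053 in nitrate mice and from -0.14 to 0.17 in controls. Across the 11 mice the correlation of this score with the Nos3 probes was r = 0.25 and r = -0.070, given as a description of mice that share arrays and normalization.

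The next members form the receptor for nitric oxide. Gucy1a3, the alpha subunit (chr3:81896409-81896468, minus strand), was higher in nitrate mice. The nitrate mice read 12.33, 12.04, 12.26, 12.17 and 12.43. The control values lay between 11.61 and 12.15, around a median of 12.02. All 5 nitrate mice lay above the control median and 4 of 5 above every control. The difference was 0.30 ± 0.10 (SE, 95% interval 0.075 to 0.53), a fold change of 1.23, with an unadjusted p of 0.0133 and an adjusted p of 0.258 in limma and an exact two-sided permutation p of 0.0152. Within slides 1, 2 and 3 it was 0.30, 0.24 and 0.37, so that each slide gave the same sign. Without control 1 it was 0.23 and without nitrate 5 it was 0.26, both under the fold limit with an unadjusted p in limma of 0.0198 and 0.0377.

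Gucy1b3, the beta subunit that holds the heme to which nitric oxide binds (chr3:81836142-81836201, minus strand), was the one member whose groups did not overlap. The nitrate mice read 11.75, 11.64, 11.65, 11.60 and 11.73. Control mice had a lowest value of 10.98, a median of 11.54 and a highest of 11.57. The lowest nitrate mouse was thus just above the highest control, while control 1 stood apart at the low end. Groups did not overlap for 2.75% of all detected probes, and every nitrate mouse was above every control for 1.61% and below every control for 1.14%. The difference was 0.25 ± 0.10 (SE, 95% interval 0.017 to 0.47), with an unadjusted p of 0.0373 and an adjusted p of 0.322 in limma and an exact two-sided permutation p of 0.00866. At a fold change of 1.19 it stayed under the limit of 1.2 and was not called. Without control 1 it was 0.16, at an unadjusted p of 0.0250 in limma. With normexp background correction it was 0.27 and was called, and it was also called when nitrate 4, control 2, control 4, control 5 or control 6 was left out (0.26 to 0.27). Within slides 1, 2 and 3 it was 0.43, 0.094 and 0.20.

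Both cyclase subunits varied together among the mice, with r = 0.91 over 11 mice and r = 0.88 without the 2 mice farthest from the median. This is a description of mice that share arrays and group, and within groups the value was 0.86.

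**Figure D2:**
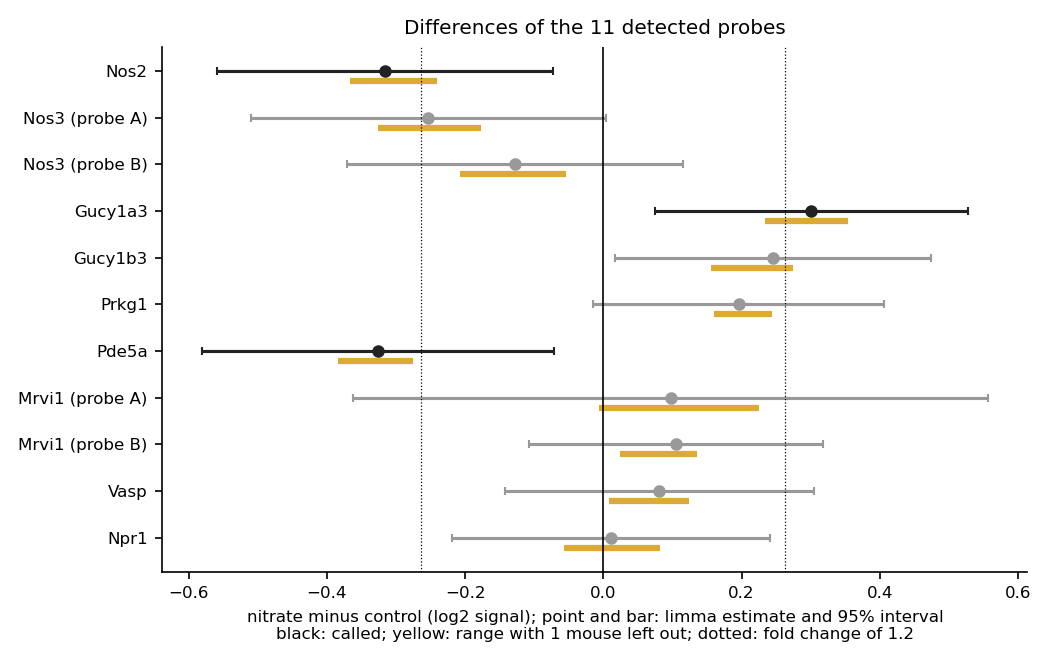
Nitrate minus control difference of the 11 detected member probes on the log2 scale, with points for limma estimates, bars for 95% intervals (black where called) and yellow bars for the range when 1 mouse is left out. Nos2 and Pde5a lie to the left and Gucy1a3 to the right of the dotted lines at a fold change of 1.2, and the yellow bars of Nos2 and Gucy1a3 reach inside those lines.

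Downstream of cGMP, Prkg1 encodes the cGMP-dependent protein kinase of smooth muscle (chr19:30643563-30643622, minus strand). The nitrate mice read 9.85, 9.78, 9.70, 9.70 and 9.56. The lowest control read 9.34, the median 9.46 and the highest 9.76. All 5 nitrate mice lay above the control median, but 2 controls (5 and 6) were as high as the nitrate mice. The difference was 0.20 ± 0.10 (SE, 95% interval -0.015 to 0.41), with an unadjusted p of 0.0657 and an adjusted p of 0.382 in limma and an exact two-sided permutation p of 0.0758, and it was not called. Within slides 1, 2 and 3 it was 0.41, 0.092 and 0.075.

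Pde5a, the phosphodiesterase that hydrolyses cGMP and the target of sildenafil (chr3:122558949-122559008, plus strand), was lower in nitrate mice. The nitrate mice read 9.80, 9.75, 9.95, 10.16 and 10.02. In controls the signal was 9.97 at the lowest, 10.31 at the median and 10.51 at the highest. All 5 nitrate mice lay below the control median, and controls 3 and 5 were as low as the nitrate mice. The difference was -0.33 ± 0.12 (SE, 95% interval -0.58 to -0.071), a fold change of 1.25 downward, with an unadjusted p of 0.0165 and an adjusted p of 0.273 in limma and an exact two-sided permutation p of 0.0325. Pde5a was the one member called in every fit that left out 1 mouse, with differences from -0.38 to -0.28. Within slides it was -0.59 in slide 1, -0.47 in slide 2 and 0.094 in slide 3, so that the sign turned in slide 3. There both controls were the lowest of their group and both nitrate mice were the highest of theirs. A further probe described as Pde5a under a transcript name missed the detection limit, since its spot was both found and well above background on 2 of 5 nitrate arrays and 3 of 6 control arrays. No difference is given for it.

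**Figure D3:**
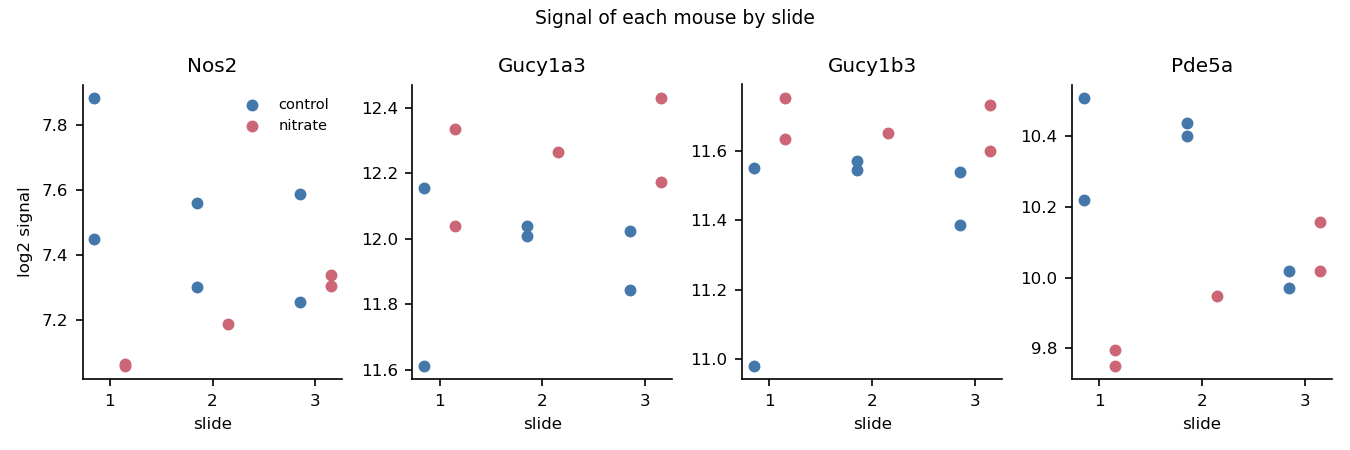
Log2 signal of Nos2, Gucy1a3, Gucy1b3 and Pde5a in each mouse by slide, with controls in blue and nitrate mice in red. The cyclase subunits have the same sign of difference in every slide, whereas Pde5a was lower in nitrate mice in slides 1 and 2 (-0.59 and -0.47) and 0.094 higher in slide 3.

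None of the kinase substrates passed the test. Mrvi1, also known as IRAG, joins the kinase to the calcium release channel of the muscle cell. Its brighter probe, A_52_P409769 (chr7:118012075-118012134, minus strand), read 12.98 to 13.15 in nitrate mice and 12.57 to 13.13 in controls, where control 1 was the low value. Its difference was 0.11 ± 0.10 (SE), with an adjusted p of 0.649 in limma, and 0.024 without control 1. The Mrvi1 probe printed above read 6.68 to 7.49 in nitrate mice and 6.50 to 7.65 in controls, with a difference of 0.10 ± 0.21 (SE) and an adjusted p of 0.876 in limma. The interval of this dim probe, -0.36 to 0.56, was the widest of the members.

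Vasp, an actin regulator whose phosphorylation is widely used as a readout of kinase activity (chr7:19842855-19842914, minus strand), read 10.57 to 11.04 in nitrate mice and 10.44 to 10.84 in controls. The difference was 0.081 ± 0.10 (SE, 95% interval -0.14 to 0.30), with an adjusted p of 0.757 in limma. The arrays measure the RNA of Vasp and not the phosphorylation of the protein. Npr1, the receptor for atrial natriuretic peptide and a guanylyl cyclase in itself, read 6.89 to 7.45 in nitrate mice and 7.05 to 7.36 in controls. Its difference was 0.011 ± 0.11 (SE, 95% interval -0.22 to 0.24), with an adjusted p of 0.978 in limma. For Mrvi1, Vasp and Npr1 the groups overlapped. Without control 1 the difference was 0.036 for Vasp, 0.033 for the dimmer Mrvi1 probe and -0.012 for Npr1, and that of Vasp was 0.0081 without nitrate 1.

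Other genes of nitric oxide and cGMP signaling were taken from a list of 43, of which 37 were detected, each by its brightest detected probe. Of these, 21 were higher and 16 lower, 0 were called higher and 2 were called lower, both phosphodiesterases. The background for the brightest probe of each gene name is 8.89% called, 4.27% higher and 4.62% lower. An unadjusted p under 0.05 in limma was met by 3 genes, and none passed after adjustment over all detected probes. The median difference was 0.035 against 0.017 over all gene names.

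Pde3b, a phosphodiesterase that hydrolyses cAMP, is inhibited by cGMP and is well known from fat cells, read 10.31, 10.62, 10.75, 10.92 and 10.99 in nitrate mice. Control signal lay between 10.97 and 11.45. Only nitrate 5 reached the control range, and the difference was -0.49 ± 0.13 (SE) with an adjusted p of 0.178 in limma and an exact two-sided permutation p of 0.0108. Within slides it was -0.70, -0.34 and -0.40. Pde2a, a phosphodiesterase that is stimulated by cGMP, read 10.56, 10.62, 10.88, 11.02 and 10.67 in nitrate mice. Its control signal lay between 10.84 and 11.59. Its difference was -0.41 ± 0.14 (SE) with an adjusted p of 0.248 in limma and an exact two-sided permutation p of 0.026. Within slides it was -0.72, -0.037 and -0.42. Both genes were called when any 1 of the 11 mice was left out.

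By role, 6 of the 9 detected phosphodiesterases outside the members were lower and 3 higher. Of the 8 targets of the kinase and genes of contractile control, 7 were higher, and limma called 0, with 0 at an unadjusted p under 0.05. Of the 6 partners of the synthases, 2 were higher and 4 lower. The third gene with an unadjusted p under 0.05 was among these partners, namely Nosip, a protein that binds the endothelial synthase, which was named after its value was seen. Its difference was 0.16 ± 0.063 (SE), under the fold limit, with an adjusted p of 0.292 in limma. In the natriuretic peptide system 4 of 7 genes were detected, and Nppb, Nppc and Corin were not. Prkg2, Pde11a and Lrmp were not detected either. Nppa, the atrial natriuretic peptide, had a standard error of 1.81 log2 units, with an SD of 3.88 in nitrate mice and 3.02 in controls. The 5 detected cardiac muscle markers had smaller standard errors, from 0.32 to 1.29, and a summed level from 11.21 to 15.42 in nitrate mice and from 10.74 to 14.85 in controls on the log2 scale, while Myl2 and Mybpc3 were not detected. All 5 were higher in nitrate mice and 0 were called. Their median difference was 1.06, and it was 0.26 without nitrate 4 and 1.84 without control 1. The highest cardiac muscle scores were those of nitrate 4 (3.55) and control 1 (3.04). The part of cardiac muscle in the Nppa value was not tested.

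**Figure D4:**
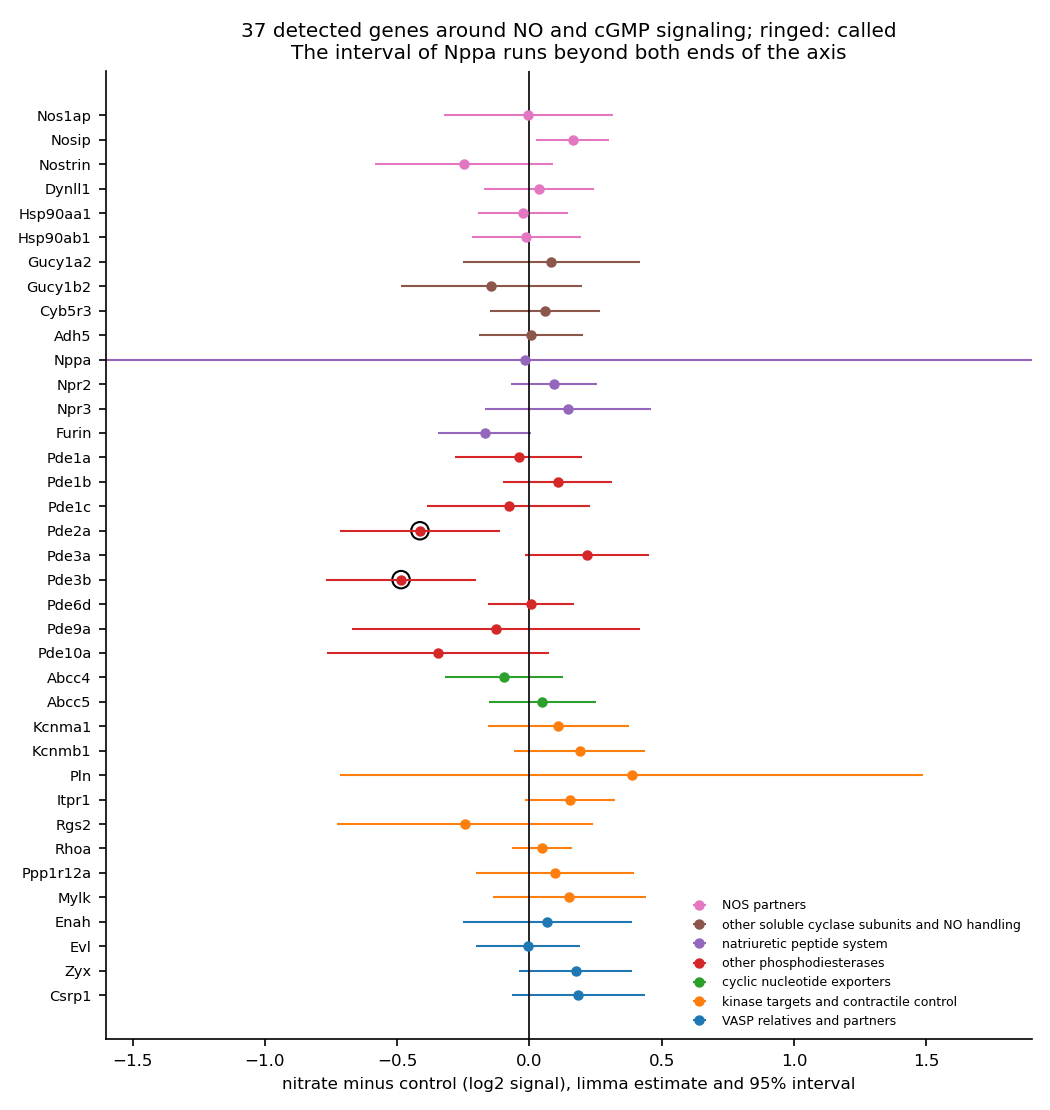
Nitrate minus control difference (log2 signal) of the 37 detected genes of nitric oxide and cGMP signaling outside the members, colored by role, with limma estimates and 95% intervals. Pde2a and Pde3b, ringed, are the 2 called genes, both lower, and most other intervals cross 0.

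All 10 of 10 markers of fat cells (adipocytes) were lower in nitrate mice and 6 were called, with a median difference of -0.38, and none was at background. Over all gene names 4.62% were called lower. None of the 10 passed after adjustment, where the smallest adjusted p in limma was 0.130. The summed level of the list on the log2 scale was 17.99 to 18.38 in nitrate mice and 18.36 to 18.84 in controls. Its brightest markers, Fabp4 and Cfd, differed by -0.16 and -0.31. Among the smooth muscle markers 9 of 10 were higher and 1 was called, with a median difference of 0.15 and a summed level of 19.41 to 19.48 in nitrate mice and 19.07 to 19.47 in controls. Its brightest markers, Acta2 and Tagln, differed by 0.029 and 0.062 and were not called. Without control 1, an alternative chosen after seeing the data, 8 of 10 smooth muscle markers were higher, 0 were called higher and 1 was called lower, and the median difference was 0.085. It was 0.068 without nitrate 1, again with 0 called. The difference of the mean smooth muscle score was 0.12, and 0.051 without control 1. Without the same mouse all 10 adipocyte markers were lower and 5 were called, with a median difference of -0.30, and 3 were called without nitrate 1.

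Across the 11 mice Nos2 ran with the adipocyte score (r = 0.90) and against the smooth muscle score (r = -0.89), with 0.78 and -0.71 when the 2 mice farthest from the median of each score were left out. Gucy1b3 ran against the adipocyte score (r = -0.88) and so did Gucy1a3 (r = -0.86) and Prkg1 (r = -0.83), with -0.87, -0.62 and -0.64 without those mice. With the smooth muscle score Gucy1b3 had r = 0.86 and Gucy1a3 r = 0.67, but 0.18 and -0.067 without them. For Prkg1 the values were 0.76 and 0.77, for the dimmer Mrvi1 probe 0.70 and 0.87, and for the brighter one 0.90 and 0.40. Control 1 was 1 of the 2 mice left out for both scores. Members also ran with scores of other cell types. Nos2 had r = 0.85 with the Schwann cell score, and 0.56 without the 2 farthest mice of that score. Prkg1 had r = 0.75 with the neuron score and -0.72 with the Schwann cell score, and 0.71 and -0.63 without the 2 farthest mice of each. For Pde5a the value with the adipocyte score was 0.55, which became 0.71 without the 2 farthest mice and 0.16 within groups. The A_51_P139651 probe of Nos3 had r = 0.71 with the adipocyte score, but 0.21 without the 2 farthest mice, whereas with the smooth muscle score it had r = -0.83, and -0.78 without them. For the other Nos3 probe the values with the smooth muscle score were -0.66 and -0.79. These values describe 11 mice that share arrays, groups and normalization, and the part of fat or muscle content in the differences of the members was not tested. Macrophage markers were higher in 9 of 9 and fibroblast markers in 6 of 6 detected genes, and limma called 0 of either list, with 0 and 2 at an unadjusted p under 0.05. Of 6 brown adipocyte markers 4 were higher and 2 lower, with a median difference of 0.23, and 1 was called higher and 1 lower. Of 4 detected Schwann cell markers 1 was called lower. The 3 detected erythroid markers, Hba-a1, Hbb-b1 and Alas2, were lower with a median difference of -0.46, and limma called 0 of them, with 0 at an unadjusted p under 0.05. Their summed level on the log2 scale was 14.06 to 15.42 in nitrate mice and 14.41 to 15.85 in controls. The erythroid score had r = 0.67 with Npr1 and 0.52 with Vasp, and 0.90 and 0.77 without the 2 farthest mice, and its part in their values was not tested.

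**Figure D5:**
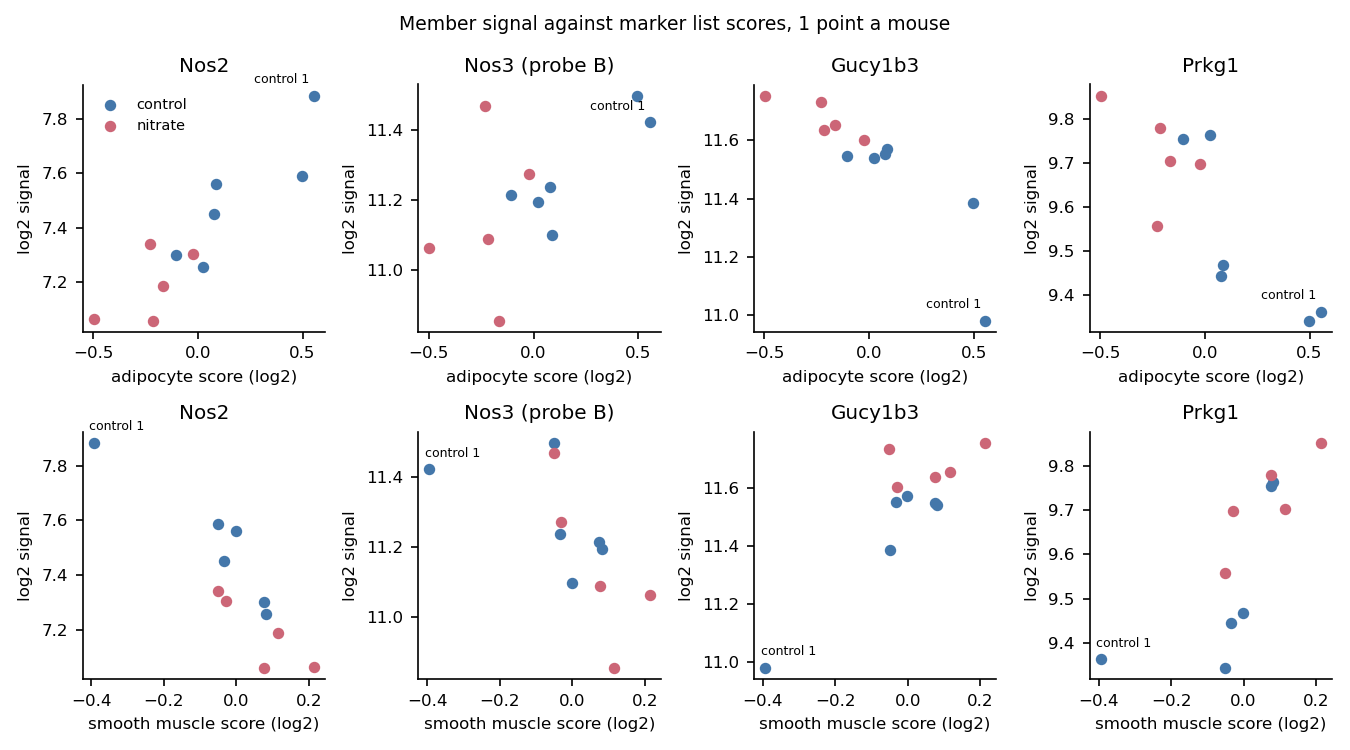
Log2 signal of Nos2, Nos3 (probe A_55_P2034027), Gucy1b3 and Prkg1 against the adipocyte score (top) and the smooth muscle score (bottom), 1 point a mouse, controls in blue and nitrate mice in red. Nos2 lies higher where the adipocyte score is higher (r = 0.90) and Gucy1b3 and Prkg1 lie lower (r = -0.88 and -0.83), with control 1 at the right end of the adipocyte score and the left end of the smooth muscle score.

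The genes whose signal over the 11 mice was most like that of 3 members were sought among the detected probes with a gene symbol. For Nos2 these were Adig, D2hgdh, Gys1, Nadk and Gpx4, with r from 0.96 to 0.98 over 17391 probes. For Nos3, by its brighter probe, they were Ddhd1, Gm8387, Cr2, Ftsj1 and Fam158a, with r from 0.94 to 0.95. For Prkg1 they were Lsm7, Fxyd1, Ptgfrn, Fbxo32 and Lmna, with r from 0.91 to 0.95. Among the members themselves Nos2 and Prkg1 ran opposite to each other (r = -0.90, and -0.88 without the 2 farthest mice), and Vasp and Npr1 ran together (r = 0.85, and 0.82 without them). All these values are descriptions over 11 mice.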

How the data were processed

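RNA from 11 aortas was labelled with Cy3 and hybridised to Agilent SurePrint G3 mouse arrays, 1 a mouse. The authors deposited spot intensities and quality columns written by Feature Extraction 10.7.1.1. The deposited value table holds the authors' log2 values, quantile normalized and centred on each probe's median per the methods, and served as an alternative. Its columns correlated with their own arrays at 0.9999 or above, and its scale and direction matched.

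From the processed signal (floor 1), outlier spots were left out, log2 values averaged over spots of a probe and quantile normalized over 11 arrays. A probe counted as detected where Feature Extraction had both found its spots and marked them well above background, on 5 or more arrays of a group. Groups were compared with limma 3.58.1 in R 4.3.3 and by an exact two-sided permutation test over 462 divisions (smallest p 0.00216). Signal values have no read depth, and the number of arrays limits the precision. The fit was tested on simulated data. P-values measure the spread between mice, 1 array each.

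Members were taken by gene name, and every probe of each was given. The members and all lists were chosen with earlier results of these data known. Of the other pathway genes those called were named, of the marker lists the 2 brightest markers and any at background, and for Nos2, Nos3 and Prkg1 the 5 probes of highest correlation. Marker scores are means of each list's deviations from the average over all mice. Alternatives were other normalization, background correction, offset, prior, detection filter, fold limit, the deposited table, slide or replicate number as a block, and leaving out each mouse. The methods state 6 mice a group, and a sixth nitrate array was not analysed here. Promoter sequences came from RefSeq (GRCm38.p6).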

Additional observations from a re-analysis of the deposited data

Results flagged for a closer look

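Dixon's ratio (the gap of the highest or lowest mouse to the nearest one, divided by the range of the group) was computed for 24 measures in each group. It passed its limit in 4 of the 24 control comparisons, each time for control 1, and in 0 of the nitrate comparisons. Chance alone gives about 1.2 for any mouse in 24 comparisons, and the measures are correlated. Its Gucy1b3 signal was low, with a ratio of 0.685. Its Mrvi1 signal on probe A_52_P409769 was low, with a ratio of 0.694. Its smooth muscle marker score was low, with a ratio of 0.725, and its brown adipocyte marker score was high, with a ratio of 0.672. These ratios come from 1 mouse and are not independent of each other.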

How the results depend on the processing

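The number of member probes called ranged from 1 to 5 when 1 mouse was left out. It was 1 without control 1, where Pde5a was the one left, and 5 without control 5 or without control 6. The number of all detected probes called was 2128. It was 1218 with normexp background correction, which lowered the share of higher calls from 46.1% to 35.8%, 3224 without the detection filter, 3394 without a fold limit, and 1596 to 2424 when 1 mouse was left out. Pathway genes called stayed at 2 to 3 in the same fits. Pde5a turned to 0.094 within slide 3. When 1 mouse was left out, Npr1 ranged from -0.058 to 0.083 and changed sign in 5 fits, without nitrate 1, nitrate 3, control 1, control 3 or control 5. The Mrvi1 probe A_51_P373669 ranged from -0.0059 to 0.22 and changed sign without control 3. Of 242 refitted differences of single member probes, 221 kept their direction and stayed called or not called, 14 of them with an unadjusted p in limma that crossed 0.05, 4 lost the call, 11 gained it and these 6 changed sign. Of 33 within-slide values 7 had the opposite sign, namely Pde5a, Vasp, Npr1 and the Nos3 probe A_55_P2034027 in slide 3, the Mrvi1 probe A_51_P373669 in slides 2 and 3, and the other Mrvi1 probe in slide 2. The filter on probes well above background on all 11 arrays did not ask that spots be found, so it kept 24151 probes, and 3 members were called. In the replicate block over numbers 1 to 5, which leaves out control 6, 3 members and 2433 probes were called. Gucy1b3 was not called there, at an unadjusted p of 0.0607 in limma. The fit of the same mice without the block called 5 members and 2424 probes. Nos3 and Gucy1b3 were among them, the latter at an unadjusted p of 0.0348 in limma. No pairing of the mice by replicate number was seen. The correlation of deviations ran from -0.14 to 0.18 and 1 of 5 mice was closest to its own number. These 5 correlations cannot exclude a pairing. The cause of these shifts was not tested. With 5 and 6 arrays, differences of the size seen here lie near the spread between mice, and Nos1 was below the range the arrays can measure.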
